A study of Mus musculus with 18 samples.

Results

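Cubilin (Cubn), amnionless (Amn), megalin (Lrp2) and the adaptor Disabled-2 (Dab2) were followed in mouse embryonic stem (ES) cells that left the undifferentiated state. The genes were found by symbol, older symbols included, in the authors' table of gene values, where 5 of 30848 rows belonged to them: 1 each for Cubn, Amn, Lrp2 and Dab2, and 1 under D630005B22Rik, an older name of Dab2. Behind these rows stood 11 probes, of which 7 passed the detection filter, and the genes were 4 of the 16106 tested. The arrays measured total RNA of the ES cell lines PL2F8 and AB2.2 at days 0, 2, 4, 6 and 8 after removal of LIF (leukemia inhibitory factor, the cytokine that holds mouse ES cells undifferentiated). Each line had 2 Illumina bead arrays at days 0, 2, 4 and 6 and 1 at day 8, 18 arrays in all, and the comparisons asked which genes differed between days and between lines. The labels give no treatment besides LIF removal, do not state how PL2F8 was made or whether it differs from AB2.2 by an allele, and do not say whether 2 arrays of a group came from separate cultures. The p-values therefore reflect how far the arrays of a group lay apart, a spread that may be technical.

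Cubilin is a large extracellular receptor without a membrane span of its own. It is anchored and brought to the cell surface by the single-span protein amnionless, and the pair, called cubam, takes up vitamin B12 bound to intrinsic factor in the ileum and filtered proteins in the kidney proximal tubule. Megalin is a giant receptor of the LDL receptor family that works beside cubam on the apical membrane, and Disabled-2 is the cytosolic adaptor that links megalin to clathrin. In the early mouse embryo all 4 proteins belong to the visceral endoderm, the absorptive epithelium that feeds the epiblast and the later yolk sac, and mouse embryos that lack amnionless or Disabled-2 do not complete gastrulation.

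The windows around the annotated starts of the genes are shown because the genes rose together in AB2.2 and because their start regions differ in composition. Each holds 300 bases, 250 before and 50 after the start, from RefSeq on GRCm38.p6, printed 5′ to 3′ on the gene's strand, and all 4 genes were matched. Cubn lies at chr2:13491827-13492126 (minus strand), Amn at chr12:111270846-111271145 (plus), Lrp2 at chr2:69585980-69586279 (minus), and Dab2 has 2 annotated starts, at chr15:6299539-6299838 and chr15:6386498-6386797 (plus). Capitals mark the matches to the searched motifs.
Cubn: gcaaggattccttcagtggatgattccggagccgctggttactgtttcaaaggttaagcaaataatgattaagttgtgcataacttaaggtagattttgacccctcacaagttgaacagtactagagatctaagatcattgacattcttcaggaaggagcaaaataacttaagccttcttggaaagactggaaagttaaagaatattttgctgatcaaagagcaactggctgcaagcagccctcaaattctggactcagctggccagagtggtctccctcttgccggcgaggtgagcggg
Amn: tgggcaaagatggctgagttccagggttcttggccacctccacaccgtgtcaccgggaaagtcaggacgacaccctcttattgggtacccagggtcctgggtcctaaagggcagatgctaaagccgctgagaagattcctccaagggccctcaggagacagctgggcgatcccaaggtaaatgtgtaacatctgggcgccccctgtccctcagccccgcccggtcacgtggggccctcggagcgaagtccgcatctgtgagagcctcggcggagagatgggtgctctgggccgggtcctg
Lrp2: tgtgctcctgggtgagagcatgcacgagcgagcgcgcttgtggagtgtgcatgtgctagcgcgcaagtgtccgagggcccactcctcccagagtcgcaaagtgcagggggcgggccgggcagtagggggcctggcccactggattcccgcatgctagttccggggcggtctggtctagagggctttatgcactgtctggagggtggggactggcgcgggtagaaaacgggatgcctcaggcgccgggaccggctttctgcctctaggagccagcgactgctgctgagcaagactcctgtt
Dab2, upstream start: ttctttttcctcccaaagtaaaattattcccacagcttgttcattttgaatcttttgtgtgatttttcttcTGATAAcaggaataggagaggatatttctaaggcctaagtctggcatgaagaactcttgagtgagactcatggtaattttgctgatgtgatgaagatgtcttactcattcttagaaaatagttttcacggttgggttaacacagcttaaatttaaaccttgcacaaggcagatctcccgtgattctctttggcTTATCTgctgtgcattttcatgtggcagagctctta
Dab2, downstream start: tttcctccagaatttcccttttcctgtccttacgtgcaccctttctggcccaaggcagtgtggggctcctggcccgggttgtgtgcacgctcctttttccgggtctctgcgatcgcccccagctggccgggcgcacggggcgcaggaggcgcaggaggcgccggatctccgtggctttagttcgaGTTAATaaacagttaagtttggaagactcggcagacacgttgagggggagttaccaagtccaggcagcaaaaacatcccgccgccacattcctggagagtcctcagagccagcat

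Base composition set these windows apart from each other. The G and C content was 44.3% for Cubn, with 5 CpG dinucleotides, 62.3% for Amn, with 15, and 65.0% for Lrp2, with 20. The upstream Dab2 window had 37.7% and 2 CpG, and the downstream one 59.3% and 19, against medians of 52.7% and 7 CpG over the 32851 windows of the RefSeq table. Motifs of factors known from endoderm were searched on both strands as fixed letters. The GATA motif (AGATAA or TGATAA or AGATAG or TGATAG) was in 29.8% of all windows and, among the 5, in the upstream Dab2 window only, as TGATAA 179 bases before the start and as TTATCT on the other strand at base 14 after it. The HNF1 half-site (GTTAAT), present in 7.1% of all windows, was in the downstream Dab2 window 65 bases before the start. The HNF4 motif (CAAAGTCCA or CAAAGGTCA, in 0.9% of all windows) and the FOXA motif (TGTTTAC or TATTTAC, in 6.5%) were in none of the 5. These matches describe letters in a window and were not tested for binding.

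The quality of the arrays bears on PL2F8 at the late days. Mean deposited signals were 283.6 to 492.7 with 41.9% to 45.0% of probes detected on 15 arrays, but 137.4 and 134.8 with 40.0% and 37.8% detected at day 6 in PL2F8, and 60.1 with 20.9% detected at day 8 in PL2F8. The 2 PL2F8 arrays of day 6 also differed more (standard deviation of their difference 0.333 on the log2 scale) than replicates elsewhere (0.152 to 0.191), so standard errors at that day may be too small, and the day 8 groups, with 1 array each, borrow the spread of the others. The ES cell label was checked on 10 markers of the undifferentiated state, such as Pou5f1 and Nanog. At day 0 PL2F8 had all 10 on at least 1 array, with summed signals of 28689 to 28755, and AB2.2 had all 10 with 23985 to 24321. By day 6 the sum was 10310 to 10372 in PL2F8 and 5584 to 5827 in AB2.2. Against day 0, 9 of the 10 markers were called lower in PL2F8 and 10 of 10 in AB2.2. The shares of all genes called lower were 35.0% and 26.6%. The exception in PL2F8, Dppa3, was higher by 2.80 and is named after its values were seen.

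All 4 genes rose in AB2.2 at every day compared with day 0, and at every day all 4 were lower in PL2F8 than in AB2.2. In PL2F8 the 4 genes did not share 1 course. Cubn stayed at the edge of detection, and Lrp2 rose at day 2 and declined after it. Amn and Dab2 were called higher from day 4, but on the dim arrays the sign of Dab2 at days 6 and 8 and of Amn at day 8 turned with median scaling. That scaling gives all arrays the same median over all probes. At most 45.0% of probes were detected on any array, so this median lay among undetected probes. Values below are log2 of the background-corrected, quantile-normalized signal, differences are on that scale with the standard error of the limma model after ±, and a call is an adjusted p below 0.05 over the 16106 genes. The share of all genes called higher in AB2.2, beside the 4 of 4 here, was 17.5% at day 2, 27.4% at day 4, 28.4% at day 6 and 24.2% at day 8. In PL2F8, 1 of the 4 was called higher at day 2 (Lrp2) and 1 lower (Amn), beside 17.5% and 19.0% of all genes. At day 4, 3 were called higher (Amn, Dab2 and Lrp2), beside 26.4%. At day 8, 2 were called higher (Amn and Dab2, both lower with median scaling of the arrays) and 1 lower (Lrp2), beside 31.7% and 41.1%. The 3 called higher in PL2F8 at day 6 (Amn, Dab2 and Lrp2) stand beside 31.1%, and with median scaling in place of quantile normalization Dab2 and Lrp2 turned to called decreases. In bulk RNA, fewer cells of a type and less RNA per cell cannot be told apart.

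**Figure D1:**
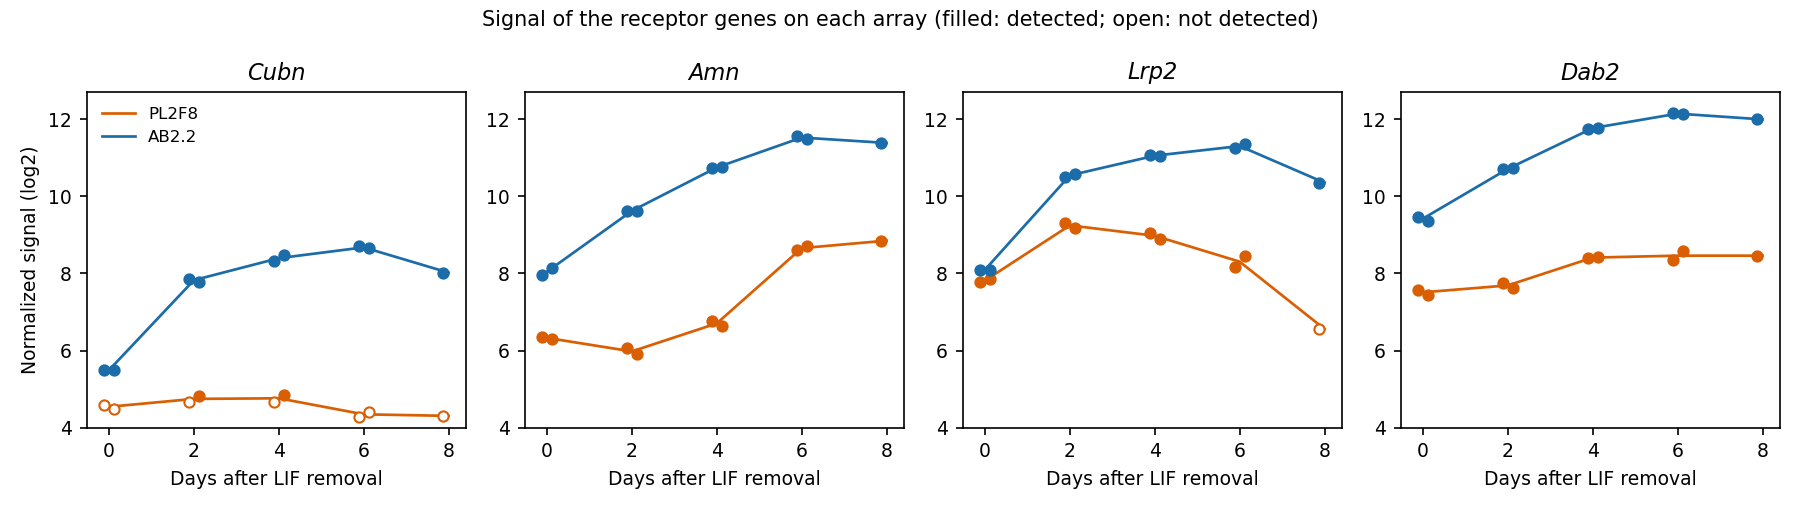
Normalized log2 signal of Cubn, Amn, Lrp2 and Dab2 on each array (vertical axis) by days after LIF removal (horizontal axis). Points are arrays, filled where the probe was detected and open where it was not, and lines join the means of PL2F8 (orange) and AB2.2 (blue). AB2.2 lies above PL2F8 at every day in each panel, and Cubn in PL2F8 is detected on 2 of 9 arrays. Levels should be compared within a panel, since probes differ in brightness.

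Cubn, the ligand-binding subunit of cubam, was measured by 1 probe (ILMN_1224851). In PL2F8 its log2 signal was 4.60 and 4.49 at day 0, 4.68 and 4.82 at day 2, 4.68 and 4.85 at day 4, 4.29 and 4.41 at day 6, and 4.31 at day 8. In AB2.2 it was 5.49 and 5.50 at day 0, 7.86 and 7.79 at day 2, 8.32 and 8.47 at day 4, 8.70 and 8.65 at day 6, and 8.02 at day 8. The probe was detected on all 9 AB2.2 arrays and on 2 PL2F8 arrays, 1 of day 2 and 1 of day 4, so it passed the filter mainly through AB2.2. The PL2F8 arrays of days 0 to 6 lay below the lowest AB2.2 array, while the day 8 array, whose lowest detected signal was 6.89, cannot be placed against AB2.2 at day 0.

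Cubn in AB2.2 was higher than at day 0 by 2.33 ± 0.09 at day 2 (5.0-fold, adjusted p = 2.3e-09), 2.90 ± 0.09 at day 4, 3.18 ± 0.09 at day 6 (9.1-fold, adjusted p = 5.0e-11) and 2.53 ± 0.11 at day 8. At day 6 in that line 53 of the 16106 genes had a rise at least as large, Cubn included. The step between days 6 and 4 was small, at 0.28 ± 0.09, and its call (adjusted p = 0.041) was lost when single arrays were left out. Day 8 was then lower than day 6 by 0.65 ± 0.11 (a log2 difference of -0.65, adjusted p = 0.0019). In PL2F8 no day was called against day 0, with differences of 0.21 ± 0.09, 0.22 ± 0.09, -0.19 ± 0.09 and -0.24 ± 0.11 at days 2, 4, 6 and 8 and adjusted p of 0.095, 0.057, 0.076 and 0.067. These 4 values rest on signal at or below the detection limit, and the day 4 value was called in 6 of 25 alternative settings and those of days 6 and 8 in 2 of 24 each.

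Between the lines Cubn was called lower in PL2F8 at each day. Where no PL2F8 array detected it, only a bound can be given, with the PL2F8 side set to the lowest signal of any detected probe on its arrays. It was at least 1.7-fold lower in PL2F8 at day 0, at least 13.2-fold lower at day 6 (adjusted p = 6.4e-12) and at least 2.2-fold lower at day 8, the last bound being loose because of the lowest detected signal of that dim array. These bounds hold on the scale used here, and the fitted day 6 difference of -4.32 ran from -4.79 with median scaling to -3.08 with an offset of 50. At days 2 and 4, where 1 of 2 PL2F8 arrays detected the probe, the differences were -3.07 ± 0.09 (8.4-fold lower in PL2F8) and -3.62 ± 0.09 (12.3-fold lower).

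Amn, the membrane anchor of cubam, had 1 probe (ILMN_2675289), detected on all 18 arrays. In PL2F8 its log2 signal was 6.36 and 6.30 at day 0, 6.06 and 5.90 at day 2, 6.76 and 6.65 at day 4, 8.60 and 8.71 at day 6, and 8.85 at day 8. In AB2.2 it was 7.95 and 8.14 at day 0, 9.62 and 9.62 at day 2, 10.74 and 10.75 at day 4, 11.55 and 11.49 at day 6, and 11.38 at day 8. The PL2F8 arrays of days 6 and 8 lay above the AB2.2 arrays of day 0 and below those of day 2, but with median scaling the PL2F8 means of both days fell below that of AB2.2 at day 0. PL2F8 and AB2.2 did not overlap at any day.

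Amn in AB2.2 was higher than at day 0 by 1.58 ± 0.09 at day 2, 2.69 ± 0.09 at day 4, 3.47 ± 0.09 at day 6 (11.1-fold, adjusted p = 1.7e-11) and 3.33 ± 0.11 at day 8. At day 6 in AB2.2, 40 of the genes tested had a rise at least as large, Amn included. In PL2F8 it was first lower, by -0.35 ± 0.09 at day 2 (adjusted p = 0.0072, not called without 1 array of day 0 or 1 of day 2). At day 4 it was higher by 0.37 ± 0.09 (adjusted p = 0.0032), and not called with median scaling. At day 6 it was higher by 2.32 ± 0.09 (5.0-fold, adjusted p = 2.8e-10), of which 1.95 ± 0.09 fell between days 4 and 6. With median scaling the day 6 difference was 0.68, still called, while all genes together shifted by -0.98. The difference of 2.52 ± 0.11 at day 8 turned to -1.15 with that scaling.

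The gap between the lines in Amn was widest at day 4, with -1.72 ± 0.09 at day 0, -3.64 ± 0.09 at day 2, -4.04 ± 0.09 at day 4 (16.4-fold lower in PL2F8, adjusted p = 1.5e-11), -2.86 ± 0.09 at day 6 and -2.53 ± 0.12 at day 8. The narrowing after day 4 was not seen with median scaling, where the differences were -4.43, -4.54 and -6.23 at days 4, 6 and 8.

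Lrp2, the megalin gene, was represented by probe ILMN_2735522, detected on 17 arrays. In PL2F8 its log2 signal was 7.77 and 7.86 at day 0, 9.31 and 9.18 at day 2, 9.05 and 8.90 at day 4, 8.17 and 8.44 at day 6, and 6.56 at day 8, where it was not detected. In AB2.2 it was 8.09 and 8.10 at day 0, 10.50 and 10.58 at day 2, 11.07 and 11.03 at day 4, 11.26 and 11.34 at day 6, and 10.35 at day 8. The lines began near each other and drew apart with each later day. Day 2 was the top of the PL2F8 course and day 6 that of AB2.2.

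Lrp2 was the 1 gene of the 4 called higher in both lines at day 2, by 1.43 ± 0.10 in PL2F8 (2.7-fold, adjusted p = 2.5e-07) and by 2.44 ± 0.10 in AB2.2 (5.4-fold, adjusted p = 2.9e-09). In AB2.2 the difference from day 0 was 2.96 ± 0.10 at day 4, 3.21 ± 0.10 at day 6 (9.2-fold) and 2.26 ± 0.12 at day 8, with day 8 below day 6 by a called -0.95 ± 0.12. In PL2F8 it was 1.16 ± 0.10 at day 4 and 0.49 ± 0.10 at day 6 (adjusted p = 6.0e-04), the last of which turned to -1.24 with median scaling. At day 8, on the scale used here, Lrp2 in PL2F8 was at least 1.9-fold lower than at day 0 and at least 2.7-fold lower than at day 6. Over the alternatives the fitted difference of -1.25 from day 0 ran from -3.55 to -0.60. That of -1.74 from day 6 ran from -2.30 to -0.91.

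The line difference in Lrp2 was -0.28 ± 0.10 at day 0 (adjusted p = 0.046), a call that 15 of 25 alternative settings did not keep. It was -1.30 ± 0.10 at day 2, -2.07 ± 0.10 at day 4 and -3.00 ± 0.10 at day 6 (8.0-fold lower in PL2F8, adjusted p = 1.0e-10). At day 8 the bound on the scale used here was at least 11.0-fold lower in PL2F8, and the fitted difference of -3.79 ran from -6.11 with median scaling to -2.50 on the authors' gene table, which averages in undetected probes.

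Dab2, the endocytic adaptor, was represented by probe ILMN_1243329, detected on all 18 arrays. In PL2F8 its log2 signal was 7.58 and 7.44 at day 0, 7.76 and 7.62 at day 2, 8.39 and 8.43 at day 4, 8.35 and 8.57 at day 6, and 8.46 at day 8. In AB2.2 it was 9.47 and 9.37 at day 0, 10.70 and 10.72 at day 2, 11.75 and 11.78 at day 4, 12.15 and 12.13 at day 6, and 11.99 at day 8. The highest PL2F8 array was below the lowest AB2.2 array of day 0.

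Dab2 in AB2.2 was higher than at day 0 by 1.29 ± 0.09 at day 2, 2.34 ± 0.09 at day 4, 2.72 ± 0.09 at day 6 (6.6-fold, adjusted p = 1.4e-10) and 2.57 ± 0.11 at day 8. In PL2F8 the day 2 difference of 0.18 ± 0.09 was not called (adjusted p = 0.14), and that of day 4 was 0.90 ± 0.09 (1.9-fold, adjusted p = 3.2e-06). The days 6 and 8 differences, 0.95 ± 0.09 and 0.95 ± 0.11, were called higher but turned to -0.77 and -2.67 with median scaling. Between the lines Dab2 differed by -1.91 ± 0.09 at day 0, -3.02 ± 0.09 at day 2, -3.35 ± 0.09 at day 4, -3.68 ± 0.09 at day 6 (12.8-fold lower in PL2F8, adjusted p = 1.6e-11) and -3.53 ± 0.13 at day 8. At day 0, with all 4 genes called lower in PL2F8, 13.1% of all genes were called lower there. The same share was 11.9% at day 2, 20.6% at day 4, 34.1% at day 6 and 39.2% at day 8.

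**Figure D2:**
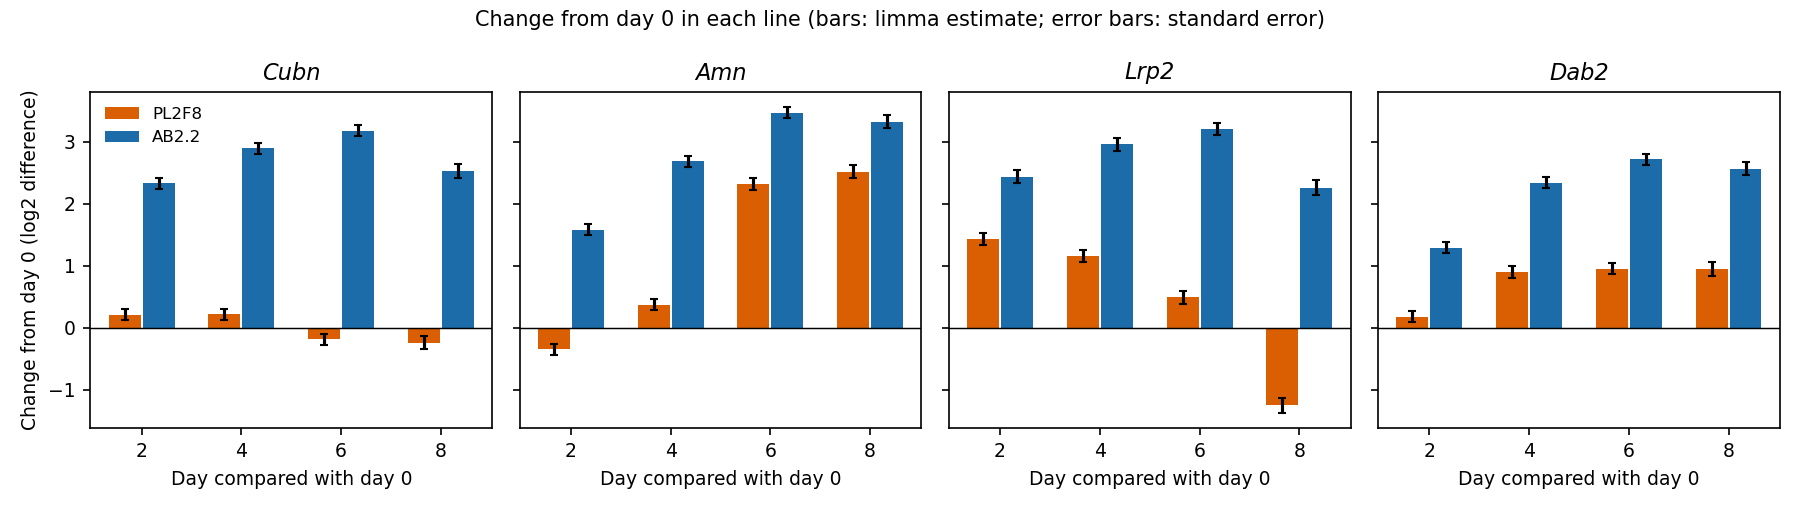
Difference from day 0 on the log2 scale (vertical axis) at days 2, 4, 6 and 8 (horizontal axis) for PL2F8 (orange) and AB2.2 (blue), with bars for the limma estimate and error bars for its standard error. All AB2.2 bars are between 1.29 and 3.47, while in PL2F8 the bars of Cubn lie near 0 and the bar of Lrp2 at day 8 is negative. The PL2F8 bars of Dab2 and Lrp2 at day 6 and of Amn and Dab2 at day 8 changed sign with median scaling.

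Whether the response itself differed between lines was tested with the interaction of line and day, the PL2F8 difference from day 0 minus the AB2.2 one. All 4 genes were called at each day, always with the lower value in PL2F8. At day 2 the interaction was -2.12 ± 0.13 for Cubn, -1.93 ± 0.12 for Amn, -1.01 ± 0.14 for Lrp2 and -1.11 ± 0.13 for Dab2, where 6.00% of all genes were called lower. At day 4 it was -2.68 ± 0.13 for Cubn, -2.32 ± 0.12 for Amn, -1.79 ± 0.14 for Lrp2 and -1.44 ± 0.13 for Dab2, beside 15.1% of all genes. The day 4 arrays had mean signals of 283.6 and 286.0 in PL2F8 and 384.1 and 391.2 in AB2.2. The dim PL2F8 arrays of days 6 and 8 are not compared here and enter only through the shared normalization and spread. Without the PL2F8 arrays of days 6 and 8 in the fit, the 4 interactions of day 4 were still called.

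At day 6 the interaction was -3.37 ± 0.13 for Cubn (adjusted p = 2.2e-09), -1.15 ± 0.12 for Amn, -2.71 ± 0.14 for Lrp2 and -1.77 ± 0.13 for Dab2, beside 29.9% of all genes called lower. With median scaling these were -3.80 for Cubn, -2.82 for Amn, -4.49 for Lrp2 and -3.35 for Dab2. Amn had the smallest of the 4 at day 6 under both scalings, but its day 4 value was the larger of its own only with quantile normalization, against -2.71 at day 4 with median scaling. At day 8 the values were -2.77 ± 0.16 for Cubn, -0.81 ± 0.15 for Amn, -3.51 ± 0.17 for Lrp2 and -1.62 ± 0.15 for Dab2, beside 37.8%. Those of Cubn at all days, and of Lrp2 at day 8, rest in part on PL2F8 signal that was not above background. With median scaling the day 8 values were -3.08 for Cubn, -4.51 for Amn, -5.94 for Lrp2 and -5.12 for Dab2.

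The ordered group means differed in shape between the genes. For Dab2 all 5 AB2.2 groups came before all 5 PL2F8 groups, and for Cubn they came before the PL2F8 groups of days 0 to 6. For Amn the PL2F8 groups of days 8 and 6 stood above AB2.2 at day 0, and for Lrp2 the PL2F8 groups of days 2, 4 and 6 did, but with median scaling Amn at days 6 and 8 and Lrp2 at day 6 stood below it. Neighbours in the order whose arrays overlapped were PL2F8 days 4 and 2 and PL2F8 days 6 and 8 for Cubn, and PL2F8 days 8, 6 and 4 for Dab2. In AB2.2 the differences of day 8 from day 6 were not called for Amn (-0.14 ± 0.11, adjusted p = 0.44) or Dab2 (-0.15 ± 0.11, adjusted p = 0.41), nor was that of day 6 from day 4 for Lrp2 (0.25 ± 0.10, adjusted p = 0.087, called in 7 of 25 alternative settings). Cubn and Lrp2 were the 2 members called lower at day 8 than at day 6 in AB2.2, where 8.77% of all genes were called lower.

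Other probes of Dab2 gave a check on the one used. A second Dab2 probe, ILMN_3091641, detected on all 18 arrays, differed between day 6 and day 0 by 1.17 ± 0.09 in PL2F8 and 3.01 ± 0.09 in AB2.2. A dimmer one, ILMN_2543173, was detected on 4 PL2F8 and 9 AB2.2 arrays and was higher at day 6 than at day 0 by 2.05 ± 0.11 in AB2.2, while in PL2F8 it was undetected at day 0 and on 1 array of day 6. The interaction at day 6 was called for the main probe, at -1.77 ± 0.13, and the second, at -1.84 ± 0.12. It was also called for the dimmer probe, at -1.62 ± 0.16, a value that rests on PL2F8 signal near the detection limit. ILMN_3019670 and the probe under the older name, ILMN_2813109, were detected on no array.

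For Lrp2, a second probe (ILMN_2708043) was detected on 5 arrays, all AB2.2 of days 2 to 6. Being undetected at day 0 and throughout PL2F8, it gave no check on the changes of the main probe, in size or direction. It passed the filter only through the AB2.2 arrays where it was high, so its calls are no support. These were higher than at day 0 in AB2.2 at days 2, 4 and 6, but not at day 8 (adjusted p = 0.27 over all probes). Its interaction was called lower at days 4 and 6, but not at days 2 and 8. ILMN_1233247 and ILMN_3117209 were detected on no array. The authors' gene table averages the 4 Lrp2 probes, 2 of them never detected, and so compresses its changes. On those values the Lrp2 interactions kept their direction and call at days 2, 4, 6 and 8.

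**Figure D3:**
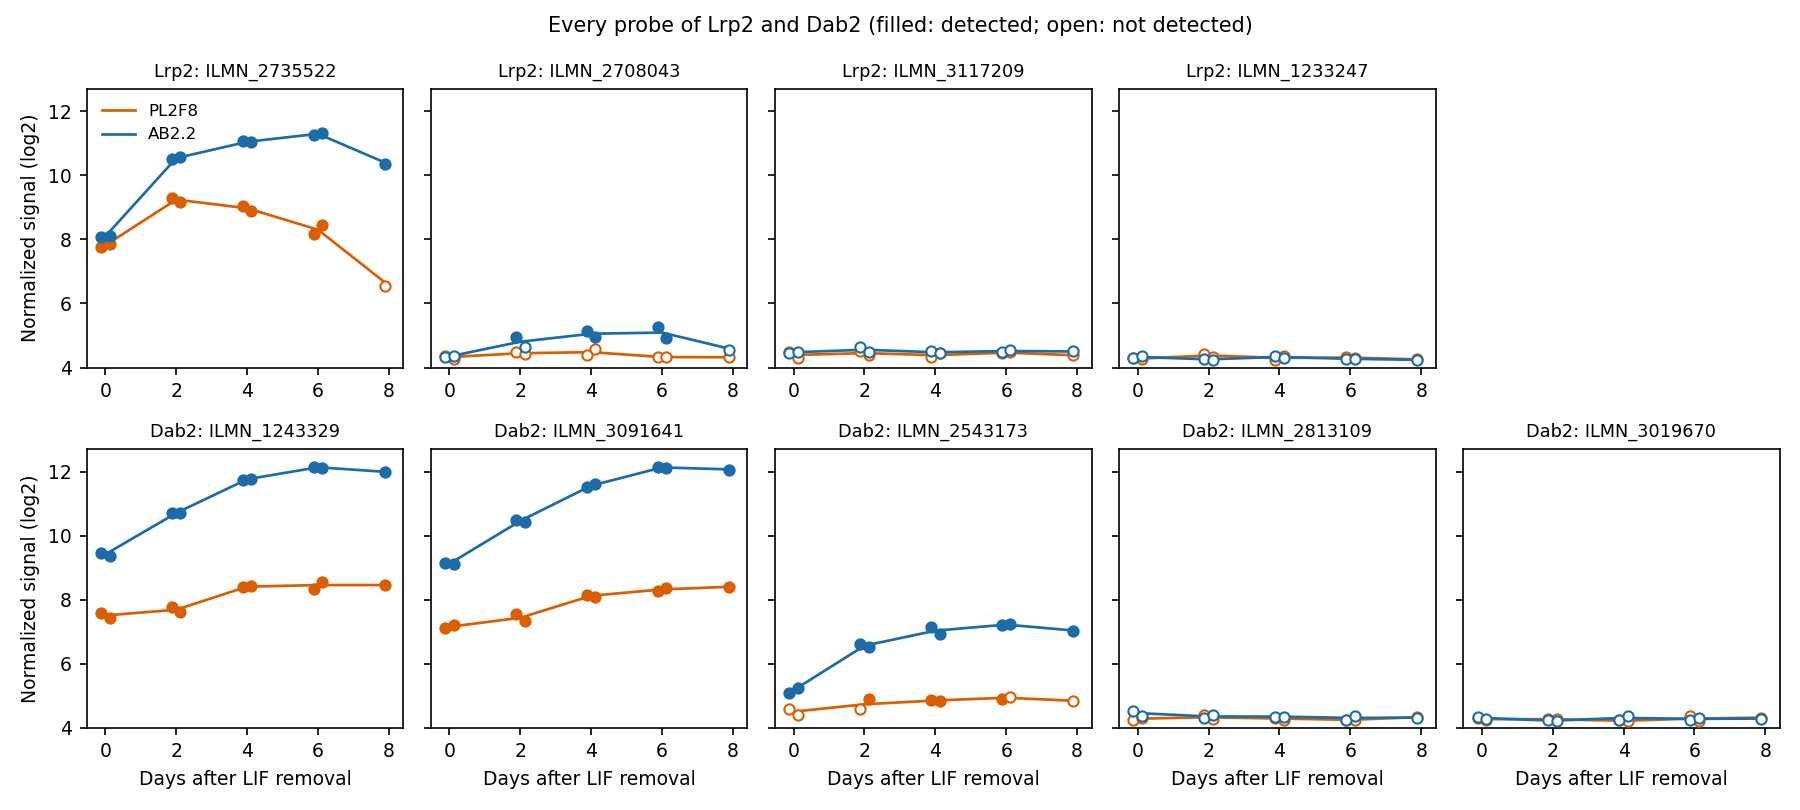
Normalized log2 signal (vertical axis) of the 4 probes of Lrp2 (upper row) and the 5 of Dab2 (lower row) by days after LIF removal (horizontal axis), for PL2F8 (orange) and AB2.2 (blue), with filled points for detected and open points for undetected arrays. The 3 Dab2 probes with signal rise in AB2.2, 2 Dab2 and 2 Lrp2 probes are open throughout, and 1 Lrp2 probe carries nearly all Lrp2 signal.

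The genes whose 10 line and day means were most like those of each member were looked up by Pearson correlation among 14762 genes, as a description only, since these means share arrays and the split between lines. Cubn was most like Pla2g12b (r = 0.978), a secreted phospholipase family protein that acts in lipoprotein export in mouse liver, Aqp8 (0.972), a water channel, Dab2 itself (0.964) and Lhx1 (0.962), a homeobox factor of the anterior visceral endoderm. Dab2 was most like Spink1 (0.980), a trypsin inhibitor, then Pla2g12b (0.971), the unnamed transcript LOC100042514 (0.966) and Pth1r (0.965), the parathyroid hormone receptor. At day 6 Spink1 differed from day 0 by 1.10 in PL2F8 and 3.23 in AB2.2, and Lhx1 by 0.55 in PL2F8 and 3.74 in AB2.2.

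Amn had other neighbours, namely Foxq1 (r = 0.984), a forkhead factor, Nxf7 (0.962), of the RNA export factor family, Ctsh (0.962), the lysosomal protease cathepsin H, and Cyp26a1 (0.962), which degrades retinoic acid. Foxq1 at day 6 differed from day 0 by 1.24 in PL2F8 and 1.49 in AB2.2. Lrp2 was most like Mfap3l (0.991), Zfp467 (0.978), a zinc finger protein, Atp6v1g2 (0.978), a subunit of the proton pump that acidifies endosomes, and Trio (0.972). Mfap3l differed at day 6 by -0.11 in PL2F8 and 1.72 in AB2.2. Without PL2F8 days 6 and 8, over 8 means, Mfap3l kept the first place for Lrp2 and Dab2 the third for Cubn. All other named neighbours changed place, though with r of at least 0.963. For Amn, Foxq1 moved to place 7, Ctsh to 20, Nxf7 to 37 and Cyp26a1 to 42. For Dab2, Spink1 moved to place 7, Pla2g12b to 11, Pth1r to 25 and LOC100042514 to 26.

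Among the members, the correlation over the 10 means was highest for Cubn and Dab2 (0.96) and lowest for Amn and Lrp2 (0.63). Over the 5 AB2.2 means all 6 pairs lay between 0.87 and 1.00. Over the 5 PL2F8 means they ran from -0.89, for Cubn and Amn, to 0.83, for Cubn and Lrp2, and the Cubn values there are mostly undetected. Each is a value over few means of shared arrays.

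Ligands and vitamin carriers of the receptors rose in AB2.2 more than in PL2F8. Of 20 entries in the list 11 were tested, and at day 6 against day 0 PL2F8 had 7 higher and 1 lower, with a median of 0.86, while AB2.2 had 11 higher, with a median of 2.69. The medians of all genes were -0.03 in PL2F8 and 0.00 in AB2.2. Of all genes, 31.1% were called higher and 35.0% lower at that day in PL2F8, and 28.4% and 26.6% in AB2.2. Apoa1, the apolipoprotein of HDL and a cubilin ligand, was at least 12.3-fold higher in PL2F8 and higher by 7.80 ± 0.10 in AB2.2. Ttr, the carrier of thyroxine that megalin takes up, was at least 8.9-fold higher in PL2F8 and at least 343.0-fold higher in AB2.2. Apoe, a ligand of the whole LDL receptor family, was higher by 2.34 ± 0.08 in PL2F8 and 2.12 ± 0.08 in AB2.2, and its interaction of 0.22 ± 0.11 was not called (adjusted p = 0.1). The interaction was called lower for 9 of the 11 genes and higher for 0, beside 29.9% and 25.6% of all genes. With median scaling PL2F8 had 3 higher and 5 lower.

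The chaperones and adaptors that serve the receptors were measured through 9 tested genes. PL2F8 had 4 higher and 4 lower at day 6, with a median of 0.18, beside 31.1% and 35.0% of all genes. AB2.2 had 5 higher and 1 lower, with a median of 0.33, beside 28.4% and 26.6%. Myo6, the myosin that moves endocytic vesicles inward and binds Disabled-2, was higher by 0.99 ± 0.09 in PL2F8 and 2.27 ± 0.09 in AB2.2. Lrpap1, the chaperone that keeps megalin from binding ligands on its way to the surface, was higher by 0.31 ± 0.07 in PL2F8 and 1.26 ± 0.07 in AB2.2, and Numb, an endocytic adaptor, by 0.47 ± 0.07 in PL2F8 and 1.05 ± 0.07 in AB2.2. With median scaling these PL2F8 rises turned to -0.81, -1.39 and -1.35. The interaction was called lower for 6 of the 9 and higher for 1, beside 29.9% and 25.6% of all genes.

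The other receptors of the LDL receptor family did not move as a block. Of 11 tested, PL2F8 had 4 higher and 3 lower (median 0.18), beside 31.1% and 35.0% of all genes. AB2.2 had 5 higher and 2 lower (median 0.22), beside 28.4% and 26.6%. Vldlr, a receptor for reelin and for triglyceride-rich lipoproteins, was higher by 1.40 ± 0.08 in PL2F8 (-0.33 with median scaling) and 1.96 ± 0.08 in AB2.2. Lrp4, the agrin receptor, was higher by 1.46 ± 0.08 in AB2.2 and differed by -0.02 ± 0.08 in PL2F8, and Lrp11 was lower in both, by -1.08 ± 0.08 in PL2F8 and -0.43 ± 0.08 in AB2.2.

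The clathrin and AP-2 machinery was near the background of all genes. Of 21 tested genes PL2F8 had 7 higher and 6 lower (median 0.08), beside 31.1% and 35.0% of all genes. AB2.2 had 8 higher and 5 lower (median 0.16), beside 28.4% and 26.6%. Bin1, an amphiphysin that bends membranes, was higher by 1.88 ± 0.08 in PL2F8 (0.16 and not called with median scaling) and 1.57 ± 0.08 in AB2.2. The clathrin light chain gene Cltb was lower by -1.66 ± 0.12 in PL2F8 and -1.71 ± 0.12 in AB2.2, and the heavy chain gene Cltc was higher by 0.78 ± 0.09 in PL2F8 (-0.92 with median scaling) and 1.18 ± 0.09 in AB2.2.

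Of 18 tested genes of apical endosomes and recycling, PL2F8 had 8 higher and 6 lower (median 0.16), beside 31.1% and 35.0% of all genes. AB2.2 had 11 higher and 3 lower (median 0.26), beside 28.4% and 26.6%. Rab25, a GTPase of apical recycling in epithelia, was higher by 2.97 ± 0.09 in PL2F8 and 2.52 ± 0.09 in AB2.2. Rab5b, of early endosomes, was higher by 2.99 ± 0.08 in PL2F8 and 1.33 ± 0.08 in AB2.2, with an interaction of 1.65 ± 0.12 (adjusted p = 2.4e-07), the opposite sign to that of the 4 receptor and adaptor genes. Appl2, an endosomal adaptor that binds RAB5, was higher by 0.94 ± 0.09 in PL2F8 (-0.82 with median scaling) and 1.07 ± 0.09 in AB2.2.

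Lysosomal genes, whose products break down the cargo, were mostly higher in both lines. Of 17 tested, PL2F8 had 14 higher and 0 lower (median 0.89), beside 31.1% and 35.0% of all genes. AB2.2 had 14 higher and 1 lower (median 1.24), beside 28.4% and 26.6%. With median scaling PL2F8 had 1 higher and 12 lower. Ctsh was higher by 1.62 ± 0.09 in PL2F8 (-0.09 with median scaling) and 4.24 ± 0.09 in AB2.2. Hexa, the hexosaminidase alpha subunit, was higher by 2.77 ± 0.10 in PL2F8 and 1.77 ± 0.10 in AB2.2, and Ctsb, cathepsin B, by 0.97 ± 0.06 in PL2F8 (-0.47 with median scaling) and 1.76 ± 0.06 in AB2.2. The interaction was called lower for 7 and higher for 6 of the 17, beside 29.9% and 25.6% of all genes.

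Genes that handle vitamin B12, a cargo of cubam, and folate were more often called lower than higher. Of 10 tested, PL2F8 had 2 higher and 6 lower (median -0.63), beside 31.1% and 35.0% of all genes. AB2.2 had 1 higher and 5 lower (median -0.21), beside 28.4% and 26.6%. Slc46a1, the proton-coupled folate transporter, was lower by -1.90 ± 0.14 in PL2F8 and -0.96 ± 0.14 in AB2.2. Mtr, the B12-dependent methionine synthase, was lower by -1.14 ± 0.08 in PL2F8 and -0.21 ± 0.08 in AB2.2 (adjusted p = 0.034). The AB2.2 call of Mtr was lost without either array of day 0 (adjusted p = 0.15 and 0.059), without the second of day 6 (0.18) and with median scaling (0.99). Abcd4, which exports B12 from lysosomes, was higher by 0.75 ± 0.11 in PL2F8 (-0.92 with median scaling) and 0.99 ± 0.11 in AB2.2.

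Kidney tubule and gut brush border genes were included because cubam is best known from these epithelia. Of 8 tested, PL2F8 had 1 higher and 5 lower (median -0.82), beside 31.1% and 35.0% of all genes. AB2.2 had 4 higher and 1 lower (median 0.75), beside 28.4% and 26.6%. Pdzk1, an apical scaffold protein, was higher by 1.57 ± 0.08 in PL2F8 (0.08 and not called with median scaling) and 3.68 ± 0.08 in AB2.2. The peptidase gene Mme was lower by -1.65 ± 0.15 in PL2F8 and differed by -0.17 ± 0.15 in AB2.2 (adjusted p = 0.36). Vil1, the villin of microvilli, was higher by 1.94 ± 0.18 in AB2.2, and in PL2F8 it was not detected at day 6, so that its call there, 1 of the 5 lower, carries no size and was lost in several alternatives.

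**Figure D4:**
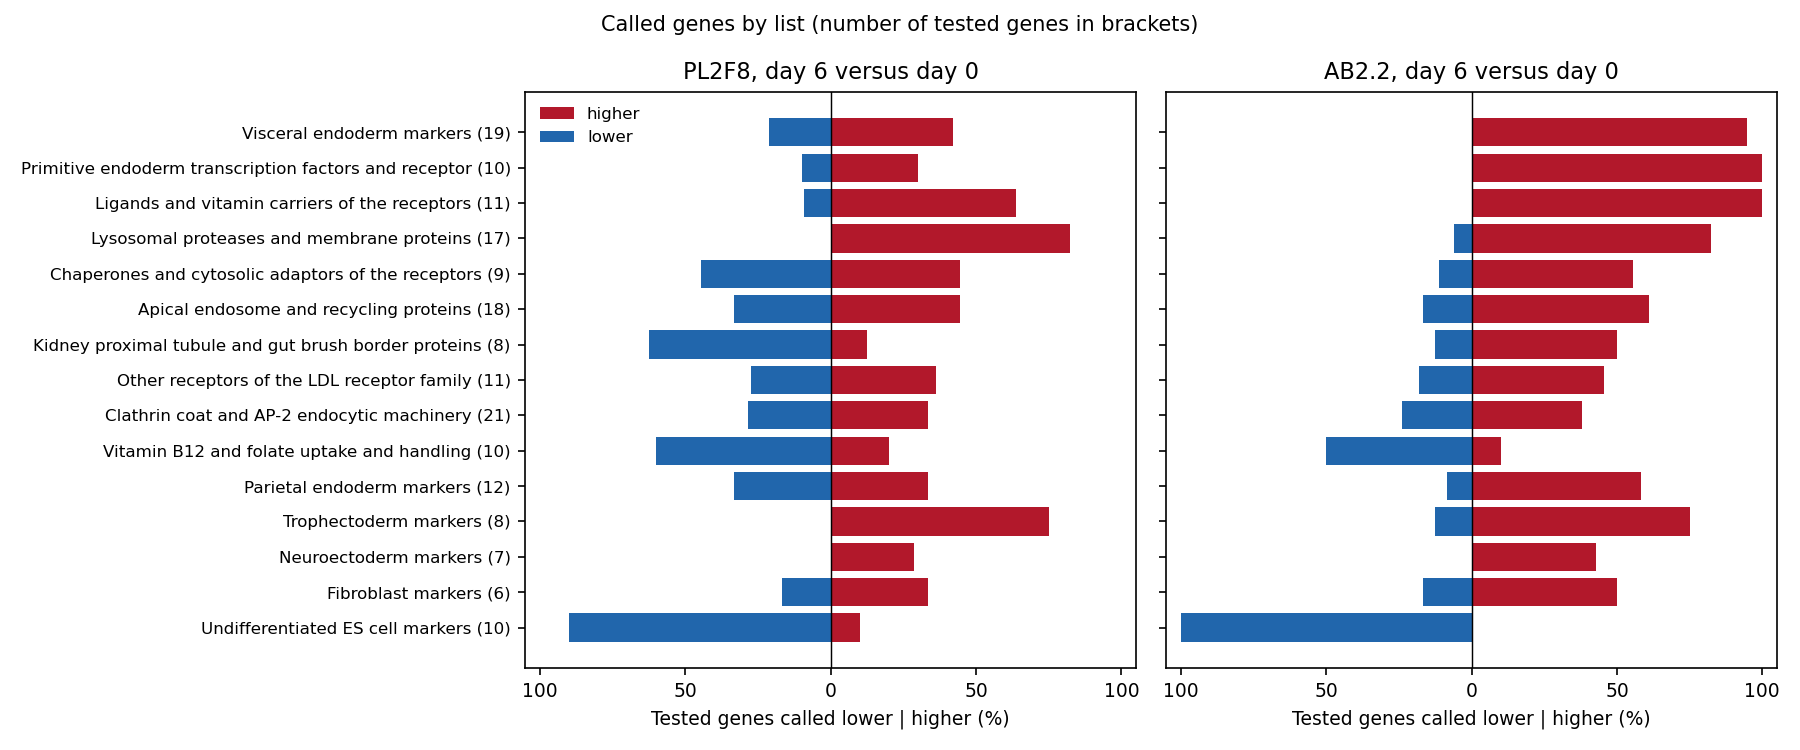
Share of tested genes of each list called lower (blue, to the left) or higher (red, to the right) at day 6 than at day 0, in percent (horizontal axis), for PL2F8 (left panel) and AB2.2 (right panel), with the number of tested genes in brackets. Ligands, visceral endoderm markers and primitive endoderm regulators fill the right side in AB2.2, with 11 of 11, 18 of 19 and 10 of 10 genes higher, while PL2F8 has 7, 8 and 3 higher. With median scaling most PL2F8 bars of mixed lists move to the lower side, lysosomal genes among them with 12 of 17 lower.

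Markers of visceral endoderm also had a lower summed signal in PL2F8 than in AB2.2 at each day, but over the days this sum followed the 4 genes only in part. None of the 4 is in the marker list, but 5 of the 11 tested ligands are also among its 19 tested genes. The summed signal of the 19 markers in PL2F8 was 3175 to 3245 at day 0, 2907 to 3107 at day 2, 2477 to 2499 at day 4, 3800 to 4248 at day 6 and 4039 at day 8. In AB2.2 it was 4294 to 4393 at day 0, 5889 to 5947 at day 2, 18830 to 19636 at day 4, 43157 to 43554 at day 6 and 54588 at day 8. From day 0 to day 2 the AB2.2 sum rose less than Cubn (5.0-fold) and Lrp2 (5.4-fold), and it was highest at day 8, when both were lower than at day 6. A sum follows its brightest genes, and single markers differed from it. At day 2 in AB2.2 Ttr was at least 25.7-fold and Apoa1 9.3-fold higher than at day 0. Afp, Apoa4, Fga, Fxyd2 and Slc39a8 were detected on neither array of that day. In PL2F8 the sum was lower at day 4 than at day 0, while Amn, Dab2 and Lrp2 were called higher. Ttr was at least 3.0-fold and Apoa1 at least 2.1-fold higher at day 4 there, while Afp, Apoa4, Fga and Slc39a8 were detected on neither array. At day 6 PL2F8 had 8 of the 19 higher and 4 lower (median 0.17), beside 31.1% and 35.0% of all genes. AB2.2 had 18 higher and 0 lower (median 3.23), beside 28.4% and 26.6%. Apoa4, Fga, Ihh and Slc39a8 were detected on no PL2F8 array of day 6, when all 19 were detected on both AB2.2 arrays. The interaction was called lower for 18 of the 19, beside 29.9% of all genes. The part of visceral endoderm cells in the differences of Cubn, Amn, Lrp2 and Dab2 was not tested.

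Primitive endoderm regulators split the lines as well. All 10 tested were higher at day 6 in AB2.2 (median 1.74), beside 28.4% of all genes. In PL2F8, 3 were higher and 1 lower (median 0.08), beside 31.1% and 35.0%. The 3 were Gata6, Hnf4a and Foxq1, named after their values were seen, with 0.87 ± 0.08, 0.59 ± 0.14 and 1.24 ± 0.13, and with median scaling none of the list was called higher there. Hnf4a, a nuclear receptor of visceral endoderm, had log2 signals of 5.81 and 5.97 in PL2F8 and 8.29 and 8.38 in AB2.2 at day 6. Gata6, the factor that starts primitive endoderm, had 5.77 and 5.82 at day 2 and 7.81 and 7.74 at day 6 in PL2F8. In AB2.2 it had 7.83 and 7.84 at day 2 and 9.46 and 9.55 at day 6. Its difference between day 2 and day 0 was -1.11 ± 0.08 in PL2F8 and -0.52 ± 0.08 in AB2.2, both called lower. At day 2, when Cubn, Amn, Lrp2 and Dab2 were already higher in AB2.2, Gata6 was thus at its lowest in both lines. Foxa2 was detected on 0 of 9 PL2F8 arrays and on 7 of 9 AB2.2 arrays, and Gata4 was not detected at day 6 in PL2F8.

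**Figure D5:**
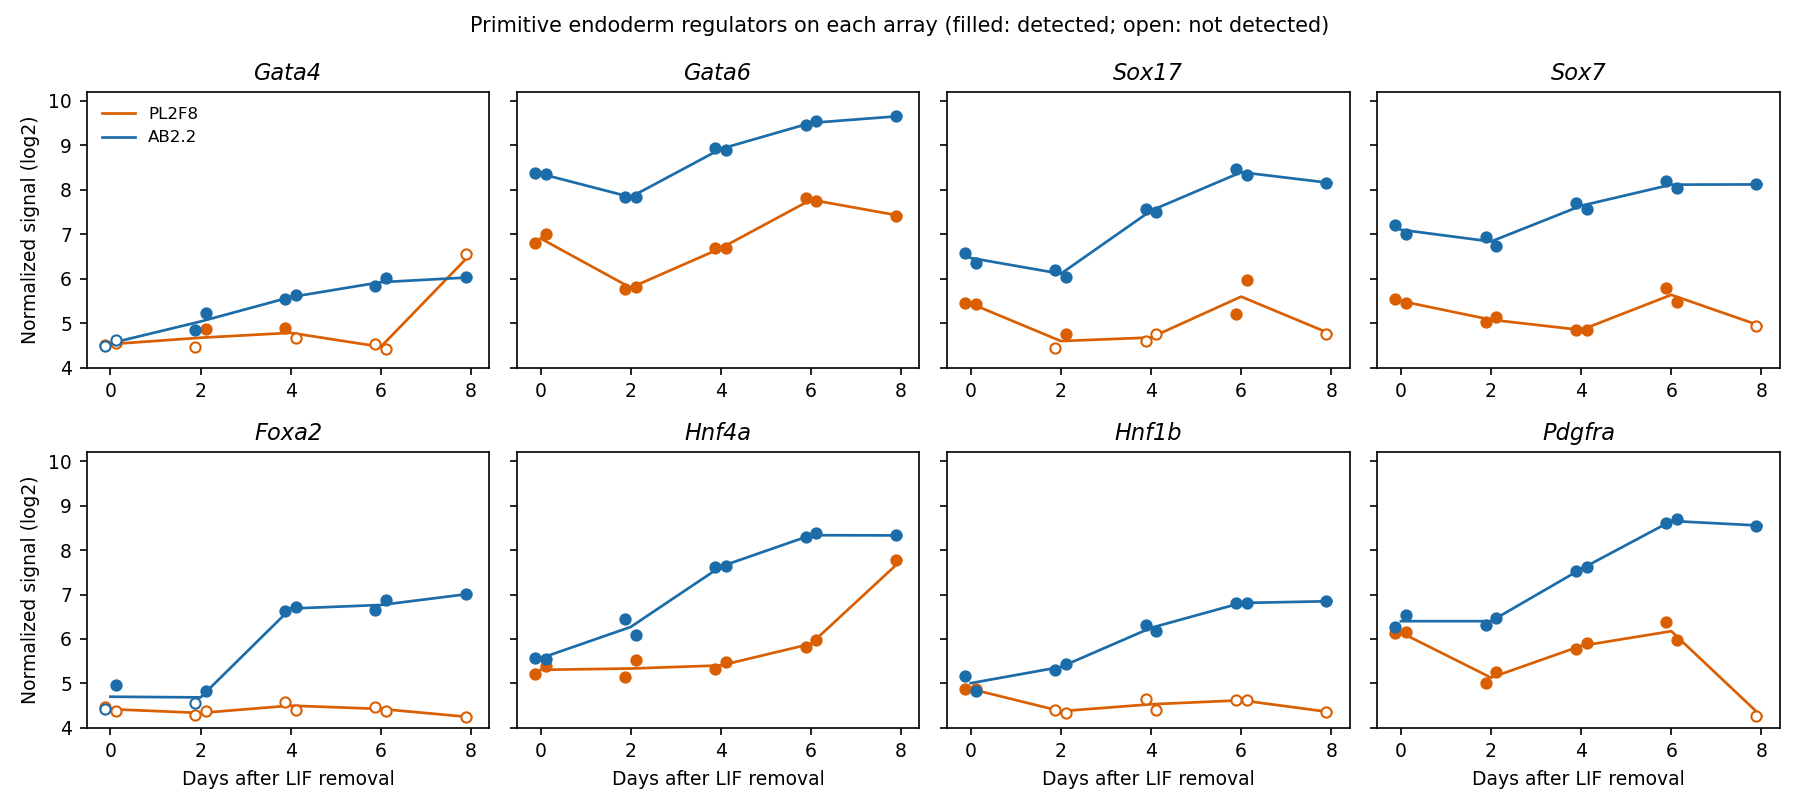
Normalized log2 signal (vertical axis) of 8 primitive endoderm regulators on each array by days after LIF removal (horizontal axis), for PL2F8 (orange) and AB2.2 (blue), filled where detected and open where not. Gata6 dips at day 2 in both lines before it rises, Foxa2 is open on all PL2F8 arrays, and the high open point of Gata4 at PL2F8 day 8 comes from the dim array, where the detection limit was 6.89.

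Markers of other cell types were set beside the same days. The shares of all genes called higher and lower at day 6 were 31.1% and 35.0% in PL2F8 and 28.4% and 26.6% in AB2.2. At day 6 parietal endoderm markers had 4 higher and 4 lower of 12 in PL2F8 and 7 higher and 1 lower in AB2.2, with summed signals of 5854 to 5961 in PL2F8 and 20958 to 21994 in AB2.2. Trophectoderm markers had 6 higher and 0 lower of 8 in PL2F8 and 6 higher and 1 lower in AB2.2. Their summed signals were 7979 to 8171 in PL2F8 and 12085 to 12291 in AB2.2. Cdx2 and Hand1 were detected on neither PL2F8 array of day 6, while all 8 were detected on both AB2.2 arrays. Neuroectoderm markers had 2 higher of 7 in PL2F8 and 3 higher in AB2.2, with sums of 1023 to 1054 and 2578 to 2582. Fibroblast markers had 2 higher and 1 lower of 6 in PL2F8 and 3 higher and 1 lower in AB2.2. Here the sum was larger in PL2F8, at 821 to 922, than in AB2.2, at 419 to 451. The part of these cell types in the differences of the 4 genes was not tested.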

How the data were processed

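Total RNA was extracted with QIAGEN RNeasy reagents and labelled with biotin, per the labels' protocols. Per the file headers, the authors deposited a non-normalized average signal (intensity) and a detection p-value per probe and array. The deposited detection p-value column was read as a score, since the fields of 445 of its 45281 lines were shifted, and those lines were left out. The image analysis software is not given in the sources used here. The authors' gene table holds a second intensity, and probes were named by matching values to it across arrays (30493 of 30848 rows matched within 0.02 on the log2 scale, 98 of the matches to a mean being ambiguous).

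The intensity deposited by the authors was background-corrected with limma 3.58.1 in R 4.3.3 (normal-exponential model, negative controls inferred from detection p-values, offset 16), put on the log2 scale and quantile normalized. A probe was kept when detected (p below 0.05) on at least 2 arrays, and a gene was its probe of highest mean. A linear model with a mean per line and day (8 residual and 4.11 prior degrees of freedom) gave 27 contrasts, adjusted by Benjamini-Hochberg over 16106 genes. A called difference of a gene undetected on a whole side was given as a bound where one could be set, and interactions and uncalled differences as fitted. The code was tested on simulated data. Python 3.11.15, pandas 2.3.3 and matplotlib 3.10.9 matched the names and drew the figures.

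The members, the 15 other gene lists and the tests were chosen with earlier results of these data known. The named genes were the 4 members, for each the 4 genes of highest correlation among those detected on at least 4 arrays, and from each pathway list the 3 genes of smallest p for the mean of both lines at day 6. Alternatives were no background correction, an offset of 50, median scaling, other detection filters, the authors' gene table, array weights, a replicate block, the PL2F8 arrays of days 6 and 8 left out together, and each array of a group with 2 arrays left out. Replicate numbers did not pair the samples. Precision is limited by the number of arrays.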

Additional observations from a re-analysis of the deposited data

Results flagged for a closer look

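The response to LIF removal differed between the lines for each of the 4 genes at each day, by the interaction term of the limma model, and every value below is the PL2F8 difference from day 0 minus the AB2.2 difference from day 0 on the log2 scale. For Cubn it was -2.12, -2.68, -3.37 and -2.77 at days 2, 4, 6 and 8. For Amn it was -1.93, -2.32, -1.15 and -0.81, for Dab2 -1.11, -1.44, -1.77 and -1.62, and for Lrp2 -1.01, -1.79, -2.71 and -3.51. With median scaling the day 6 and day 8 values were -3.80 and -3.08 for Cubn, -2.82 and -4.51 for Amn, -3.35 and -5.12 for Dab2, and -4.49 and -5.94 for Lrp2. The Cubn values rest on PL2F8 signal that was mostly not detected. The values of days 6 and 8 rest on the dim PL2F8 arrays, with mean signals of 137.4 and 134.8 at day 6 and 60.1 at day 8, and day 8 had 1 array per line. The part of array brightness in these values was not tested. The day 2 and day 4 estimates compare none of the dim arrays, which enter only through the shared normalization and spread.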

How the results depend on the processing

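Over the 4 genes, 27 comparisons and the alternatives run, 2595 values kept their direction and side of the threshold, 38 lost a call, 18 gained one and 9 reversed, all 9 with median scaling. The line differences and interactions of the 4 genes kept direction and call in every alternative run, except the day 0 difference of Lrp2. The array median used in median scaling lay among undetected probes on every array. Median scaling shifted the median of all genes by -0.98 at day 6 and -1.97 at day 8 in PL2F8, 0.10 at day 6 in AB2.2 and -1.20 in the day 6 interaction. Under it, PL2F8 differences from day 0 were -0.77 (Dab2) and -1.24 (Lrp2) at day 6 and -1.15 (Amn) and -2.67 (Dab2) at day 8. Relative to the shift they were 0.21, -0.26, 0.82 and -0.70. Dab2 was -1.26 at day 6 against day 4, and day 8 against day 6 was -1.83 for Amn and -1.90 for Dab2. The mean of both lines at day 8 was -0.11 for Dab2 and -0.58 for Lrp2. At day 6 in PL2F8, Vldlr was -0.33, Myo6 -0.81, Lrpap1 -1.39, Numb -1.35, Abcd4 -0.92, Cltc -0.92, Appl2 -0.82, Ctsh -0.09 and Ctsb -0.47. All genes called were 1217 higher and 10998 lower at day 6 in PL2F8, against 5014 and 5644 with quantile normalization, 1080 and 6361 in the day 4 interaction, against 2375 and 2435, and 747 and 11273 in the day 6 interaction, against 4119 and 4821. The cause was not tested.

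Cubn at day 6 in PL2F8 became a called -0.18 without background correction (adjusted p = 0.045) and on the authors' gene table (adjusted p = 0.029). The 18 gained calls were 7 of Lrp2 at day 6 against day 4 in AB2.2 (0.23 to 0.25), 6 of Cubn at day 4 in PL2F8 (0.22 to 0.31), 2 each of Cubn at days 6 and 8, and 1 of Dab2 at day 2 in PL2F8. Calls lost when single arrays were left out included Lrp2 between lines at day 0, Lrp2 at day 4 against day 2 in PL2F8, Cubn and Dab2 at day 6 against day 4 in AB2.2 and Amn at day 2 in PL2F8. With 1 array left out, the lone array of that group is assumed to vary like the others. Same-numbered arrays of different groups did not deviate together (28 correlations from -0.03 to 0.04). With the replicate number as a block, Lrp2 between lines at day 0 was -0.28 (adjusted p = 0.057), Vil1 at day 6 in PL2F8 lost its call (adjusted p = 0.051), and no other call of a named gene changed. The slide could not be used as a block because the files give none. Signals below the detection limit of an array, up to 6.89 at day 8 in PL2F8, limit what can be said of Cubn and Lrp2 there.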
